A study of Mus musculus with 14 samples.

Results

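Closely spaced Sin3B peaks in C2C12 myotubes were chosen by their position in the peak list: they are peaks of the Sin3B myotube list that began less than 1000 bp after the end of the previous peak on the same chromosome, together with that previous peak. The rule found 267 such neighbouring pairs. They comprised 520 of the 3769 peaks of the list (13.8%), of 7606 peaks in all 4 lists, and formed 253 runs, of which 240 held 2 peaks, 12 held 3 and 1 held 4. Their spacing is therefore a description.

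C2C12 is a mouse muscle cell line (C3H background per the labels) whose myoblasts fuse into multinucleated myotubes. The series mapped chromatin binding of Sin3A and Sin3B before and after that fusion by chromatin immunoprecipitation and sequencing. Sin3B was precipitated from myotubes, which came from confluent cultures in 2% horse serum and were separated from undifferentiated cells with dilute trypsin (5 samples), and from myoblasts in 10% fetal bovine serum (2 samples). Sin3A was precipitated from myotubes (2 samples) and from myoblasts (2 samples), and 2 myotube and 1 myoblast input samples were not analysed here. Files within a group were identical, which left 1 peak list per group. No spread between cultures could be measured, and no p-value is given. Depth is unknown, and the intervals given are 95% exact binomial (Clopper-Pearson) intervals, which cover counting error only. PCR copies are not independent molecules. Per the labels the antibodies against both proteins carry 1 catalogue number, with different lot numbers for Sin3A and Sin3B, and what part this has in overlaps between the proteins was not tested.

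The Sin3 proteins have no known sequence-specific DNA binding of their own. They act as scaffolds that hold histone deacetylases and are brought to chromatin by transcription factors, and in muscle cells they have been linked to the silencing of genes during differentiation. Some mammalian genes are arranged in pairs that start close together on opposite strands.

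Genes could be assigned on chromosome 16. There, 78 of 108 peaks of the 3 other lists (72.2%, 62.8 to 80.4%) lay within 1 kb of a gene start of the RefSeq table (GRCm38.p6) without any change of position. On the 18 other chromosomes in the table that share ran between 0.0% and 25%. Chromosome 16 held 15 of the closely spaced peaks, in 7 runs. The match was uneven along it. Among the 10 nearest peaks of the 3 other lists, 5 lay near a start at the run from 92823457. At the runs from 84834570 and 91646944 it was 6 and 7, and at the rest 9 or 10. Gene names at those runs with lower counts are less sure. Positions of peaks are those of the files, counted from 1, and no source used here names their build.

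Of the 7 runs, 5 (71.4%, 29.0 to 96.3%) lay at starts of genes on opposite strands within 1 kb of each other, against 15 of the 105 other Sin3B myotube peaks of the chromosome (14.3%, 8.22 to 22.5%). Over both kinds together the share was 17.9%. In 4 of the 7 runs (57.1%, 18.4 to 90.1%) the starts were head to head, the minus-strand start lying to the left, against 14 of the 105 other peaks (13.3%, 7.49 to 21.4%). These are few runs. The order rests on the listed starts, and by outer ends of the gene spans it turned for Cdc45 with Ufd1 and for Atp5j with Gabpa. In stretches of 5 Mb on other chromosomes that also matched the table, a choice made after seeing the data, opposite starts were at 2 of 7 runs (28.6%, 3.67 to 71.0%) and at 12 of 87 other peaks (13.8%, 7.34 to 22.9%). Runs elsewhere could not be counted. Promoters of the head-to-head genes are printed, except that of Atp5j, whose window largely overlaps that of Gabpa on the opposite strand. Each runs from 250 bases before to 50 after the start, from RefSeq on GRCm38.p6, on the gene's own strand from 5′ to 3′. Capitals mark letter strings described further on.
Cdc45, chr16:18811923-18812222, minus strand: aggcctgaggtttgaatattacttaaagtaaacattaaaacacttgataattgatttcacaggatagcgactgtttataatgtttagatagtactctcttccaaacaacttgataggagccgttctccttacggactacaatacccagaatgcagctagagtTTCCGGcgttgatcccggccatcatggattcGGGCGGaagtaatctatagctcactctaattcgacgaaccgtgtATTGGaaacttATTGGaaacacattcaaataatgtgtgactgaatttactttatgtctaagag
Ufd1, chr16:18812044-18812343, plus strand: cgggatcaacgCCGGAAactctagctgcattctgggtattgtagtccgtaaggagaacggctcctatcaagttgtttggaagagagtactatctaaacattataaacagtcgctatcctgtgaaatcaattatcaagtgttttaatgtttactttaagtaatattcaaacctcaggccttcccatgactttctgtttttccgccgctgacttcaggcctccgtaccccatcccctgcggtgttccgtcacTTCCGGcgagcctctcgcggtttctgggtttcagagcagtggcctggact
Alg3, chr16:20610712-20611011, minus strand: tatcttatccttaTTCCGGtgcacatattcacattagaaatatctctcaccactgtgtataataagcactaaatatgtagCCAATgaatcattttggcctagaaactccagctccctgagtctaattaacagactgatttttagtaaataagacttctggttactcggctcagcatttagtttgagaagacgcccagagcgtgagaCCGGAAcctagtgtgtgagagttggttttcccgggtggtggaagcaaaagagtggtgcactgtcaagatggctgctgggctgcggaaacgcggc
Eef1akmt4, chr16:20611351-20611650, plus strand: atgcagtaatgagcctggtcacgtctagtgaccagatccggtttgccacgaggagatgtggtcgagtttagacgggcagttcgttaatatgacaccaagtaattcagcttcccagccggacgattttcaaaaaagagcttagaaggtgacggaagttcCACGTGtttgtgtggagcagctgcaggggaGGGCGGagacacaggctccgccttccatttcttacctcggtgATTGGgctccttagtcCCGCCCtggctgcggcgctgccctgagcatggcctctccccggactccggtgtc
Gabpa, chr16:84834874-84835173, plus strand: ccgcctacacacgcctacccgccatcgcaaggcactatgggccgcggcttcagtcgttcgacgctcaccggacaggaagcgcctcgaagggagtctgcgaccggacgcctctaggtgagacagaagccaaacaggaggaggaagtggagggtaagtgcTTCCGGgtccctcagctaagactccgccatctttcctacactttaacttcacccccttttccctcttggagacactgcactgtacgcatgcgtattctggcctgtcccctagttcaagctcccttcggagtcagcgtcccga
Gart, chr16:91646923-91647222, minus strand: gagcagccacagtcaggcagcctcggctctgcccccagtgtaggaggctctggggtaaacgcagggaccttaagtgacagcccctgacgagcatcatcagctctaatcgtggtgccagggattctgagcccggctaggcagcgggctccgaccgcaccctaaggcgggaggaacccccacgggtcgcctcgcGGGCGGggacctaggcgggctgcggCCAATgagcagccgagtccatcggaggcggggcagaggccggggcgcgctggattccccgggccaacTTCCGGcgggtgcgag
Son, chr16:91647574-91647873, plus strand: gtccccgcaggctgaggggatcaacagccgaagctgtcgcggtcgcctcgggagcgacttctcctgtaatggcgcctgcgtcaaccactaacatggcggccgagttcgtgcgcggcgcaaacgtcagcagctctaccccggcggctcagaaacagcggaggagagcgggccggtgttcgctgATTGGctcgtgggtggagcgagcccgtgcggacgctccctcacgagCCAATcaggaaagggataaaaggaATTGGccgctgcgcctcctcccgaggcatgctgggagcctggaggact

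The first run spanned 18811349 to 18812990 between Cdc45, which encodes a part of the replicative helicase, and Ufd1, a cofactor of the p97 segregase in protein degradation. Its peaks were 776 and 596 bp wide with 270 bp between them. The Cdc45 start lay in the left peak, 623 bp from the start of the run, and the Ufd1 start lay in the gap, at 945 bp. The outer end of the Ufd1 span lay in the left peak, at 387 bp. The right peak overlapped a Sin3B myoblast peak, and the left one did not.

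At 20610333 to 20611687 stood Alg3, a mannosyltransferase of N-glycan assembly, and Eef1akmt4, a methyltransferase of elongation factor 1A, whose start is shared by the readthrough gene Eef1akmt4-ece2. Peaks of 640 and 584 bp were parted by 131 bp, and each peak held 1 start: Alg3 at 428 bp in the left peak and Eef1akmt4 at 1268 bp in the right one. Here the left peak overlapped the Sin3B myoblast peak.

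At 84834570 to 84836374, the gap of 560 bp between peaks of 354 and 891 bp held both head-to-head starts. These were a start of Atp5j, a subunit of the mitochondrial ATP synthase, at 406 bp, and that of Gabpa, an ETS family transcription factor, at 554 bp. Another listed start of Atp5j lay in the right peak at 1055 bp. The Sin3B myoblast peak, at 84834896 to 84835375, began in the left peak and covered most of the gap without meeting the right peak. Thus these head-to-head starts lay within a Sin3B peak in myoblasts and between the Sin3B peaks in myotubes. The outer ends of the gene spans lay elsewhere, that of Gabpa at 321 bp in the left peak and that of Atp5j at 1287 bp in the right one. Both outer ends lay outside the myoblast peak, so the contrast between stages depends on which transcript start is used.

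Gart, a multifunctional enzyme of purine synthesis, and Son, a splicing cofactor, flanked the run at 91646944 to 91648603. Its peaks of 486 and 561 bp were 613 bp apart. The Gart start lay in the left peak, 28 bp from its edge, and the Son start in the gap at 880 bp. No peak of the 3 other lists lay within 1 kb of it.

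The other run with opposite starts, at 55973566 to 55975242, had its listed starts in the reverse order. Zbtb11, a zinc finger protein gene on the plus strand, started in the left peak (659 bp wide) at 238 bp. The noncoding Zbtb11os1 on the minus strand started in the right peak (839 bp wide) at 1051 bp, so the gene spans overlap. By outer ends the spans of Cdc45 and Ufd1, and those of Atp5j and Gabpa, overlap as well. The gap was 179 bp, and a Sin3B myoblast peak met the left peak.

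The remaining runs of chromosome 16 had no such pair of starts. The run of 3 peaks at 92823457 to 92826159 ended at Runx1, a Runt family transcription factor, whose start lay in the third peak, 2617 bp from the start of the run. Its gaps were 688 and 112 bp. The run at 23986722 to 23987829 lay inside the gene span of Bcl6, which encodes a repressor that recruits corepressors. No listed start lay within 1 kb, but the run ended 1037 bp from the right end of that span, just beyond this limit. Neither run met a peak of the 3 other lists.

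**Figure D1:**
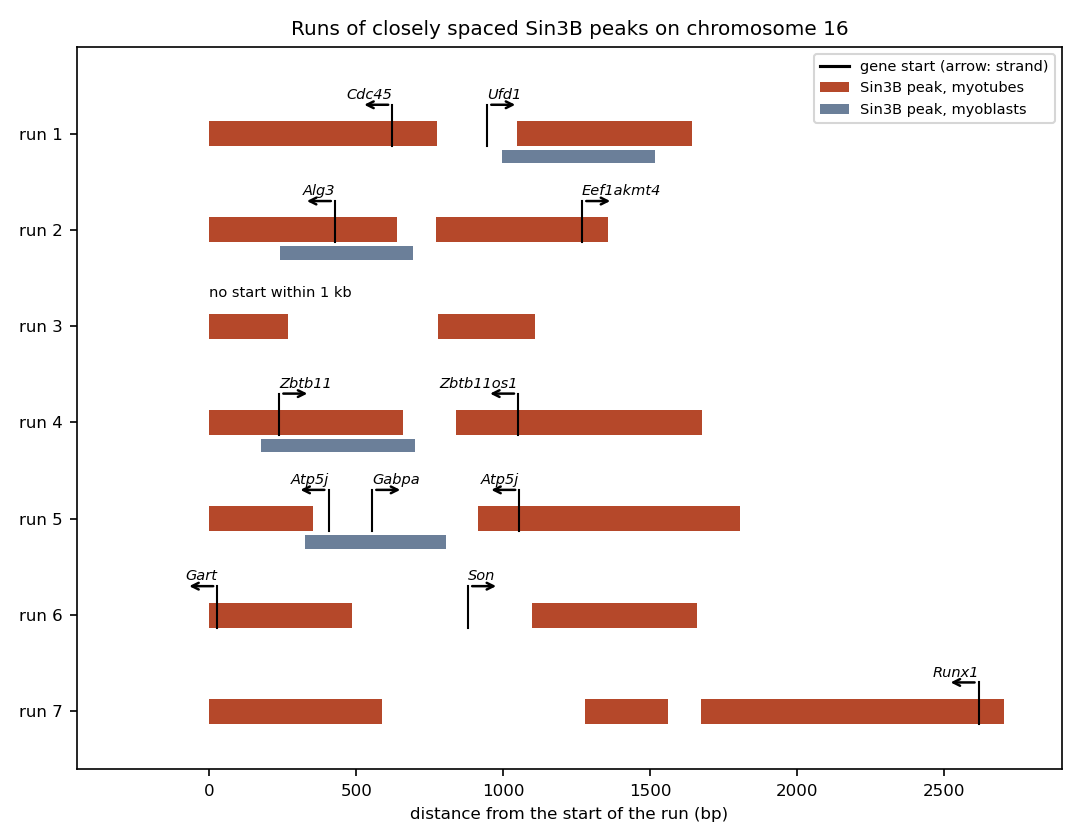
Sin3B peaks of the 7 runs on chromosome 16 in myotubes (red) and overlapping Sin3B peaks in myoblasts (blue), by distance from the start of the run in bp, with gene starts as arrows on their strand. In run 5 both head-to-head starts fall in the gap of 560 bp, and in run 2 each peak holds 1 start. The outer ends of the run 5 gene spans, not drawn, fall in its peaks.

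Counted peak by peak, the share of chromosome 16 peaks near a gene start had intervals that overlap, and its order depended on the setting. Of 15 closely spaced peaks, 11 (73.3%, 44.9 to 92.2%) lay within 1 kb of a start, against 88 of 105 other peaks (83.8%, 75.3 to 90.3%), with 82.5% over all 120. Of the 7 runs, 6 did so (85.7%). With the chromosome taken up to 94 Mb, a limit not planned beforehand, 88 of 99 other peaks (88.9%) lay within 1 kb of a start. Opposite starts were then at 15 of those 99 peaks (15.2%). With a spacing limit of 500 bp, 7 of 8 closely spaced peaks (87.5%) and 92 of 112 others (82.1%) lay within 1 kb of a start. Within 5 kb of a start lay all 15 closely spaced peaks and 89 of the 105 others (84.8%), so the order turned in these counts. The start used is that of the promoter table, and where several transcripts exist it can differ from the outer end of the gene. With outer ends, 4 of the 7 runs and 15 of the 105 other peaks had opposite starts. In those 4 runs the minus-strand end lay to the left for Alg3 with Eef1akmt4 and for Gart with Son. It lay to the right for Cdc45 (623 bp) with Ufd1 (387 bp) and for Atp5j (1287 bp) with Gabpa (321 bp). Head-to-head outer ends were not counted at the other peaks.

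Letter strings of known factors were searched on both strands of the promoters. Near the 7 runs there were 12 different promoters, and near the other peaks of the chromosome 124. CCAAT, the NF-Y box, was found in 8 of 12 (66.7%, 34.9 to 90.1%) and in 42 of 124 (33.9%, 25.6 to 42.9%). CCGGAA, the core of many ETS sites, was found in 8 of 12 (66.7%, 34.9 to 90.1%) and in 62 of 124 (interval 40.9 to 59.1%), and in 14.9% of all 32851 promoters of the table. Cdc45 and Ufd1, and Atp5j and Gabpa, share letters because their windows overlap, so the 12 are not independent.

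GGGCGG, an Sp1 box, was found in 6 of 12 promoters at runs and 81 of 124 at other peaks (65.3%), and in 35.7% of all promoters. CACGTG, the E-box of the Max network, whose Mad proteins bind Sin3, was found in 3 of 12 and 16 of 124 (12.9%), and in 7.15% of all promoters. TTCCCGC, an E2F string, was found in 1 of 12 and 14 of 124 (11.3%), against 4.6% of all promoters. CCAAT was found in 37.4% of all promoters. The strings differ from each other on both strands, though their occurrences may abut. The median ratio of observed to expected CpG was 0.804 at runs, 0.857 at other peaks and 0.303 at the 940 chromosome 16 promoters with no Sin3B myotube peak within 1 kb. A match is a string of letters and not a bound site.

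The peaks themselves stood close together. Gaps ran from 101 to 975 bp with a median of 225 bp and quartiles of 137 and 433.5 bp, and 121 of the 267 (45.3%) were 200 bp or less. The smallest gaps were 101 bp in 2 pairs and 103 bp in 5, and none was 100 bp or less, so no closer neighbours are listed as separate peaks. In steps of 100 bp the number of pairs was 121, 46, 23, 27, 16, 13, 10, 7 and 4 for gaps from 101 up to 1000 bp, and 25 had gaps above 1000 and up to 2000 bp. The count then ran between 5 and 19 for each further 1000 bp up to 10000 bp.

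The 5 pairs just inside the limit had gaps of 975, 962, 950, 926 and 884 bp, and the 5 just outside had gaps of 1009, 1024, 1025, 1038 and 1048 bp. Of the right-hand peaks, 3 of the 5 just inside and 2 of the 5 just outside overlapped a Sin3B myoblast peak.

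**Figure D2:**
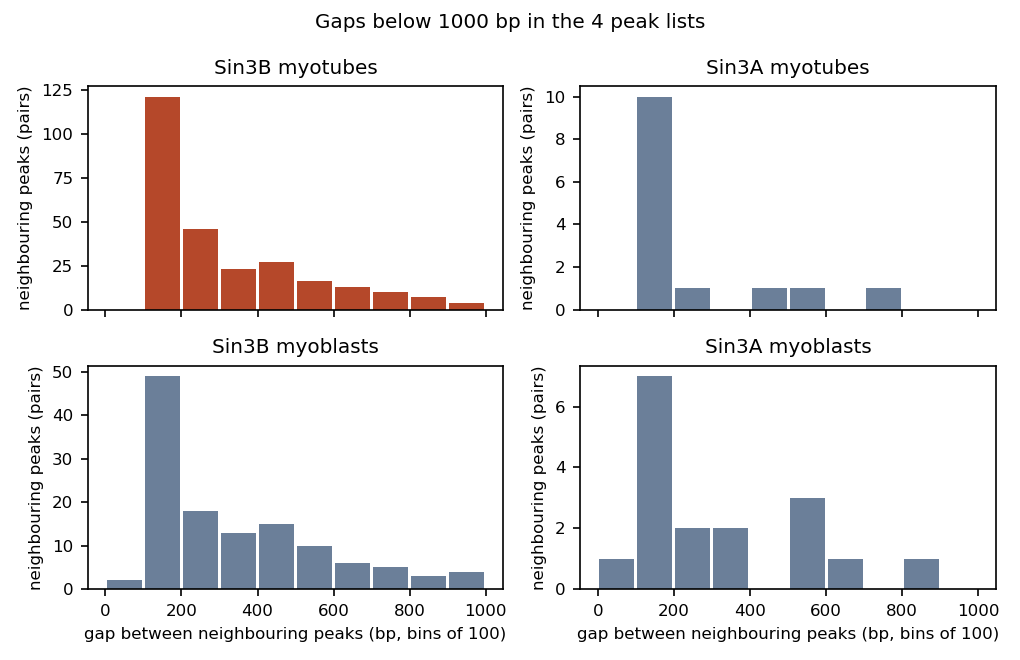
Number of neighbouring peak pairs by gap in bins of 100 bp, for gaps below 1000 bp in each of the 4 lists (vertical scales differ). All 4 lists have their highest bar at 101 to 200 bp, with 121 pairs for Sin3B in myotubes.

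Close spacing was more frequent in the 2 longer lists, those of Sin3B. By the same rule 520 of 3769 Sin3B myotube peaks (13.8%, 12.7 to 14.9%) were closely spaced, 28 of 759 Sin3A myotube peaks (3.69%, 2.47 to 5.29%), 233 of 2387 Sin3B myoblast peaks (9.76%, 8.6 to 11.0%) and 33 of 691 Sin3A myoblast peaks (4.78%, 3.31 to 6.64%). Median gaps were 225, 132.5, 250 and 206 bp in the same lists. The Sin3A myoblast list has 691 peaks, and the other lists were also cut to their 691 widest peaks. The shares were then 2.03% (Sin3B, myotubes), 2.6% (Sin3A, myotubes) and 2.32% (Sin3B, myoblasts), beside 4.78% in the uncut Sin3A myoblast list. The Sin3B lists no longer had the higher shares. A pair is lost when either of its peaks is cut, so these shares do not compare the proteins.

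Closely spaced peaks were somewhat narrower than the rest. Their median width was 500.5 bp (486 to 526 bp), against 552 bp (543 to 562 bp) for the 3249 other peaks. Widths ranged from 118 to 2000 bp and from 6 to 2157 bp, and 6.15% and 7.66% exceeded 1000 bp. Since the width comes from the same list as the rule, this is a description. Within a pair the wider peak had a median of 613 bp and the narrower one of 406 bp, a median ratio of 1.48, and 55 pairs (20.6%) differed by over 2-fold. The wider peak was on the left in 132 pairs and on the right in 135. Runs spanned 510 to 3900 bp with a median of 1361 bp.

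Each peak by itself, a smaller share of closely spaced peaks than of the rest met each of the other lists. A Sin3A myotube peak was overlapped by at least 1 bp by 64 of 520 (12.3%, 9.61 to 15.4%), against 555 of 3249 other peaks (17.1%, 15.8 to 18.4%), and by 16.4% of the whole list. A Sin3B myoblast peak was overlapped by 173 (33.3%, 29.2 to 37.5%) against 1261 (38.8%, 37.1 to 40.5%), with 38.0% over the whole list. A Sin3A myoblast peak was overlapped by 29 (5.58%, 3.77 to 7.91%) against 257 (7.91%, 7.0 to 8.89%), with 7.59% over the whole list. No other list was met by 304 closely spaced peaks (58.5%, 54.1 to 62.7%) and 1649 other peaks (50.8%, 49.0 to 52.5%), or 51.8% of all. The differences were -4.77, -5.54, -2.33 and 7.71 percentage points. Peaks of a run share a site, so these intervals are too narrow for them.

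The order turned when each run was counted once. Of the 253 runs, 52 (20.6%, 15.7 to 26.1%) met a Sin3A myotube peak, 125 (49.4%, 43.1 to 55.7%) a Sin3B myoblast peak and 22 (8.7%, 5.53 to 12.9%) a Sin3A myoblast peak. A run is longer than a peak, so windows of 1500 bp around the centre of a run or of another peak were also used. In them 20.2% of runs (15.4 to 25.6%) and 17.5% of other peaks (16.2 to 18.9%) met Sin3A in myotubes. With Sin3B in myoblasts the shares were 48.6% (42.3 to 55.0%) and 40.9% (39.2 to 42.6%). With Sin3A in myoblasts they were 8.7% (5.53 to 12.9%) and 8.19% (7.27 to 9.18%). The direction therefore depended on whether the peak or the site was counted, and the intervals of runs and other peaks overlap in the windows for all 3 lists. Over the full span of the runs, the interval for Sin3B in myoblasts lay above that of the other single peaks (37.1 to 40.5%).

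**Figure D3:**
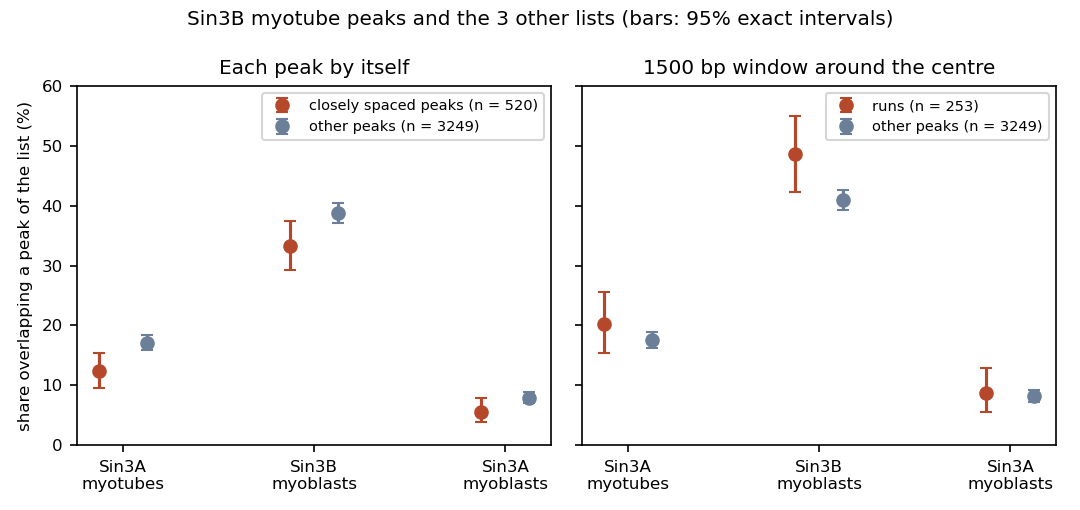
Share of Sin3B myotube peaks that overlap a peak of each other list in percent, with 95% exact intervals, for closely spaced peaks and other peaks (left) and for 1500 bp windows around runs and other peaks (right). Closely spaced peaks lie below the others on the left (33.3% against 38.8% for Sin3B in myoblasts), and runs lie above them on the right (48.6% against 40.9%).

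The difference between single peaks was smaller at matched width. With the other peaks weighted to the widths of the closely spaced ones, in 4 width classes of about equal size over the list, 15.5% of them overlapped Sin3A in myotubes, 36.8% overlapped Sin3B in myoblasts and 7.36% overlapped Sin3A in myoblasts. In the widest class (713 to 2157 bp) 15 of 102 closely spaced peaks (14.7%, 8.47 to 23.1%) and 255 of 839 other peaks (30.4%, 27.3 to 33.6%) overlapped Sin3A in myotubes. In the narrowest class (6 to 416 bp) the shares were 6.75% (3.42 to 11.8%) and 7.29% (5.57 to 9.34%). With Sin3B in myoblasts the widest class had 51.0% (40.9 to 61.0%) and 57.1% (53.7 to 60.5%). The order turned for Sin3A in myotubes at 417 to 545 bp (14.2% of closely spaced and 11.5% of other peaks). It also turned for Sin3B in myoblasts in the narrowest class (27.6% and 27.0%) and Sin3A in myoblasts at 546 to 712 bp (9.09% and 8.05%). In every other class the closely spaced peaks had the lower share.

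**Figure D4:**
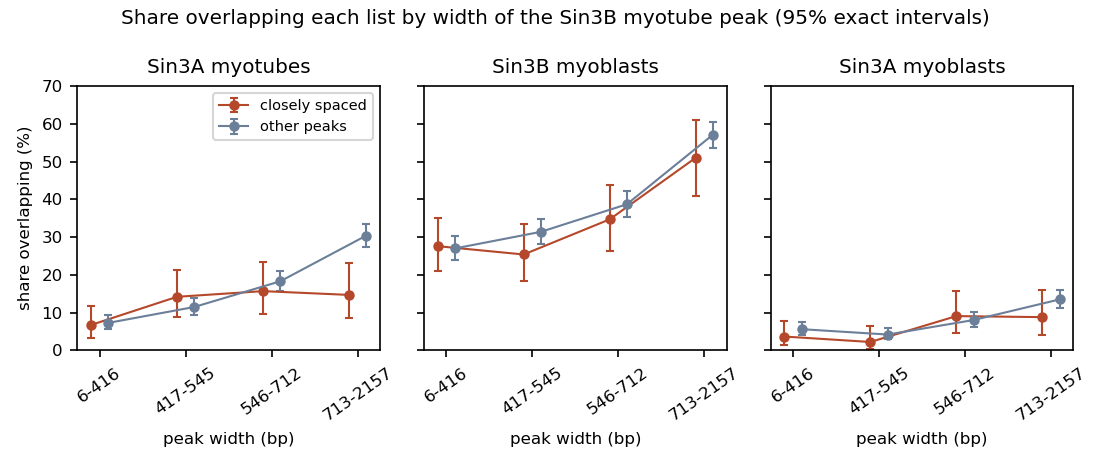
Share of Sin3B myotube peaks overlapping each other list in percent, by class of peak width in bp, for closely spaced and other peaks, with 95% exact intervals. The intervals are apart in the widest class for Sin3A in myotubes, at 14.7% and 30.4%.

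In combination, 132 closely spaced peaks (25.4%) overlapped a Sin3B myoblast peak alone, 36 (6.92%) a Sin3A myotube peak alone and 19 (3.65%, 2.21 to 5.65%) both of these, against 27.6%, 7.54% and 6.19% (5.38 to 7.07%) of the other peaks. All 3 other lists were met by 8 closely spaced peaks (1.54%) and by 76 others (2.34%).

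Peaks of the other lists mostly met 1 peak of a pair. A Sin3B myoblast peak met both peaks in 48 of 267 pairs and 1 peak in 81. Of those 48, 30 pairs (11.2%, 7.71 to 15.7%) were spanned by a single myoblast peak and 18 (6.74%, 4.04 to 10.4%) were met by separate peaks. The pairs spanned by 1 peak had a median gap of 150.5 bp, and the spanning myoblast peaks a median width of 930.5 bp. Their centres fell in the left peak in 11 pairs, in the gap in 13 and in the right peak in 6. In the 18 pairs met by separate peaks, the gap was a median of 263 bp in myotubes and 345 bp in myoblasts. Where 1 peak of the pair was met, it was the wider one in 56 of 81 pairs. Among peaks that were not closely spaced, overlap with this list also rose with width, from 27.0% in the narrowest class to 57.1% in the widest. In 1 pair a Sin3B myoblast peak lay in the gap and met neither.

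Sin3A in myotubes met both peaks of 12 pairs, of which 9 were spanned by 1 Sin3A peak, and 1 peak of 42 pairs. In those 42 it was the wider one in 22 and the left one in 23. The 9 spanned pairs had gaps of 101 to 238 bp. No Sin3A myotube peak lay in a gap alone (0 of 267, with an upper limit of 1.37%). Sin3A in myoblasts met both peaks of 7 pairs and 1 peak of 16. By gap, a Sin3B myoblast peak was met by 61 of 121 pairs (50.4%, 41.2 to 59.6%) at 101 to 200 bp, 51 of 96 (53.1%, 42.7 to 63.4%) at 201 to 500 bp and 17 of 50 (34.0%, 21.2 to 48.8%) at 501 to 999 bp. The intervals of the 3 classes overlap.

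**Figure D5:**
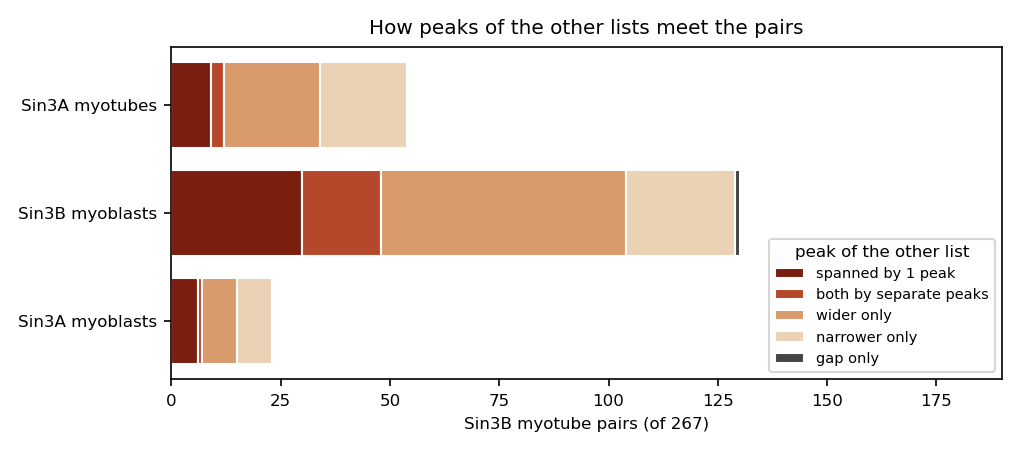
Number of the 267 Sin3B myotube pairs met by peaks of each other list, by how they are met: both peaks spanned by 1 peak, both by separate peaks, the wider or the narrower peak only, or the gap only. Sin3B in myoblasts spans 30 pairs and Sin3A in myotubes 9.

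The same was counted for pairs of the myoblast list. Of its 125 close Sin3B pairs, 33 were spanned by 1 Sin3B myotube peak, 18 were met by separate myotube peaks, 35 had 1 peak met and 39 had none. Of its 108 runs, 28 (25.9%) overlapped a myotube run, and of the 253 myotube runs 27 (10.7%) overlapped a myoblast run.

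The 13 runs with 3 or 4 peaks lay on 12 chromosomes. The one of 4 peaks, on chromosome 10 at 79610699 to 79614587, had widths of 555, 437, 601 and 1166 bp and gaps of 427, 228 and 475 bp. Its second peak overlapped a Sin3A myotube peak, and the last 2 each overlapped a Sin3B myoblast peak. On chromosome 8 at 87500299 to 87502562, peaks of 816, 299 and 794 bp all overlapped Sin3B in myoblasts, and the last 2 also overlapped Sin3A at both stages. With 5 peaks of other lists, that run met more of them than any other of the 253. On chromosome 5 at 143575915 to 143578749 all 3 peaks (1218, 473 and 703 bp) overlapped Sin3B in myoblasts and none overlapped Sin3A. By contrast, 6 of the 13 met no other list, on chromosomes 2, 3, 6, 8, 16 and 18. One of these, on chromosome 6 at 86475225 to 86476881, had gaps of 103 and 130 bp.

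The widest runs differed in the same way. That of greatest span, on chromosome 15 at 96115594 to 96119493, had peaks of 1716 and 1769 bp with 415 bp between them and met no other list. Another on chromosome 15, at 76033846 to 76036922, paired a peak of 589 bp with one of 2000 bp across 488 bp and met 2 Sin3B and 1 Sin3A myoblast peaks. Pairs at the smallest gap of 101 bp lay on chromosome 1 at 181732828 to 181734054, where 1 Sin3A myotube peak spanned both, and on chromosome 15 at 77670913 to 77672513, where the right peak met Sin3A in myotubes and Sin3B in myoblasts.

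By chromosome, the share of Sin3B myotube peaks that were closely spaced ran from 7.27% on chromosome 7 (12 of 165, 3.81 to 12.4%) to 22.3% on chromosome 18 (21 of 94, 14.4 to 32.1%). Chromosome 15 had 45 of 222 (20.3%, 15.2 to 26.2%), chromosome 2 had 31 of 346 (8.96%, 6.17 to 12.5%) and chromosome 11, with 61 of 369, had 16.5% (12.9 to 20.7%).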

How the data were processed

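The authors deposited 11 peak lists without header, as chromosome, start and end, and with no score. Files of a group were byte-identical and were counted as 1 list. No source used here gives the aligner, peak caller, threshold, genome build, pooling or use of input, so depth is unknown. The labels' protocols give 18 PCR cycles and fragments of about 350 bp.

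The peaks, gene lists and alternatives were chosen with earlier results of these data known. Overlap meant at least 1 bp. Shares carry exact binomial 95% intervals and medians exact order-statistic intervals. No hypothesis test was run, as each group has 1 list. RefSeq starts (GRCm38.p6) were used where at least 50% of the peaks of the 3 other lists lay within 1 kb of a start. That gave chromosome 16 of 19 in the promoter table, and no position was converted. Runs were named if they held 3 or more peaks, or ranked in the first 8 by smallest gap, span or peaks of other lists, and not all named so are printed. On chromosome 16 all runs were named with their genes. Of 6 gene lists (core histones, Sin3-HDAC complex, myogenic regulators, sarcomere, cell cycle, ribosomal proteins), the last alone had starts on chromosome 16 in the table, 4 genes, and none at a run. The cell cycle list does not hold Cdc45, so its lack of genes there reflects the choice of list. On 20 simulated lists of 400 peaks, planted pairs and overlaps were counted with 0 errors. Counting used pandas 2.3.3 and numpy 2.4.6 under Python 3.11.15, intervals scipy 1.17.1 and plots matplotlib 3.10.9.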

Additional observations from a re-analysis of the deposited data

How the results depend on the processing

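No paired analysis was possible because the files of a group are identical, and leaving out any copy left all 93 values as they were. The number of closely spaced peaks was 425 with a limit of 500 bp, 565 with 2000 bp and 391 with centres under 1000 bp apart. With an overlap of 50% of the shorter peak, the share on Sin3B myoblast peaks was 29.0% and that on no other list 64.4%. Pairs with both peaks met then numbered 5 with Sin3A in myotubes, 30 with Sin3B in myoblasts and 1 with Sin3A in myoblasts. Within 1 kb, where each peak of a pair also reaches what its neighbour meets, the shares were 21.2% (Sin3A, myotubes), 48.8% (Sin3B, myoblasts), 8.65% (Sin3A, myoblasts) and 38.7% (no other list). The differences from the other peaks turned to 3.46, 7.45, 0.34 and -9.33 points. Pairs with both peaks met then numbered 55, 128 and 22, and those with 1 peak met 5, 6 and 2. With each run counted once, the shares were 20.6%, 49.4%, 8.7% and 38.7%, and the differences turned to 3.47, 10.6, 0.79 and -12.02 points. In the 1500 bp windows, added after seeing the data, they were 20.2%, 48.6%, 8.7% and 39.5%, with differences of 2.65, 7.71, 0.51 and -9.01 points. The share of closely spaced peaks was 11.3% and 15.0% for Sin3B in myotubes and 7.62% and 11.2% for Sin3B in myoblasts at 500 and 2000 bp, and 2.03% and 2.32% among the 691 widest peaks. Within 5 kb of a gene start lay 100% of closely spaced peaks of chromosome 16 and 84.8% of the others, which also turned the order. Opposite starts were at 28.6% of runs in the 5 Mb windows described under other observations. The other 172 of 215 values lay within the interval of the value reported, or for counts within 1.5 times it. These 172 include the 93 values with an identical copy left out, which could not change and say nothing of stability. Also among the 172, the order of closely spaced and other peaks near a gene start on chromosome 16 turned in 2 settings. These were the 500 bp limit (87.5% and 82.1%) and each run counted once (85.7% and 83.8%).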

Other observations

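Some stretches of other chromosomes also matched the gene table. In windows of 5 Mb where at least 50% of 5 or more peaks of the 3 other lists lay within 1 kb of a gene start, a rule chosen after seeing the data, there were 7 further runs, on chromosomes 8 and 19. Where also at least 5 of the 10 nearest peaks of other lists lay near a start, genes are named here, which leaves out 2 runs.

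On chromosome 8, Pcid2 and Cul4a, a scaffold of ubiquitin ligases, started head to head in the gap of 926 bp between peaks at 13104149 to 13106426, at 1194 and 1474 bp from the start of the run. The left of these peaks overlapped a Sin3B myoblast peak. Ing1, a subunit of the Sin3-HDAC complex itself, had a start in the gap of 390 bp at 11555434 to 11556216 and further listed starts in its right peak and 241 bp beyond it, with no other list met. The left peak of that run was 118 bp wide, the smallest width among the closely spaced peaks, and the right one 275 bp. The run at 11633214 to 11634945 ended 91 bp short of a start of Ankrd10. On chromosome 19, Zfpl1 and Cdca5, which encodes the cohesin protector sororin, both started in the right peak at 6083780 to 6085606, a peak of 1058 bp that met all 3 other lists. Znrd2 started in the gap of 123 bp at 5731209 to 5732053, and a Sin3B myoblast peak spanned both peaks there.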
